A study of Mus musculus with 11 samples.

Results

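The CXC chemokines are a family of small secreted proteins that steer white blood cells, and their transcripts were followed here in single fetal livers of E15.5 mouse embryos. The members were named by symbol and by no measured value: Cxcl1, Cxcl2 and Cxcl5 as ligands that attract neutrophils, Cxcl9, Cxcl10 and Cxcl11 as ligands induced by interferon, and Cxcl12, Cxcl13 and Cxcl16 as ligands with homeostatic roles. They are 9 of the 52636 genes listed for each liver. RNA was sequenced from 11 untreated livers: 3 WT, 2 Tnfr1-/- (TNFR1KO in the labels), 3 Casp8-/- Mlkl-/- and 3 Casp8-/- Tnfr1-/- (the 2 latter are dKO in the labels). Casp8 encodes caspase-8, a protease that starts apoptosis and holds back necroptosis, Mlkl encodes the protein that ruptures the membrane in necroptosis, and Tnfr1 is the gene for TNF receptor 1. All the null alleles are germline alleles in mice kept on a C57BL/6N background, so a gene was missing from every cell type of the embryo and of its liver. The Casp8-/- Tnfr1-/- livers were compared with each of the other 3 genotypes, and Casp8-/- Mlkl-/- and Tnfr1-/- livers with WT livers. The question was how the 3 classes of ligand stood when Casp8 was missing together with Tnfr1 or with Mlkl. These 2 genotypes differ in Tnfr1 as well as in Mlkl, so effects of the 2 genes cannot be told apart between them. The sources do not say whether livers of 1 genotype came from different litters.

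Chemokines bind receptors of the G-protein-coupled family, and cells crawl towards the source. Ligands with a Glu-Leu-Arg motif before the first cysteines, such as CXCL1, CXCL2 and CXCL5, act through CXCR2 on neutrophils, and their genes respond quickly to IL-1, TNF and NF-kB. CXCL9, CXCL10 and CXCL11 share the receptor CXCR3 on activated T cells and NK cells and are induced by interferons. CXCL12 acts through CXCR4 and ACKR3 and holds hematopoietic stem cells and their progeny in their niche, which at this age is the fetal liver; CXCL13 draws B cells through CXCR5, and CXCL16 is made as a membrane protein that binds CXCR6.

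RefSeq sequence upstream of the start (build GRCm38.p6) was found for 6 of the 9 members, and 4 are printed because their genes rose most, with that of Cxcl12, which fell, for contrast. Cxcl5, Cxcl11 and Cxcl16 had no entry. Each window holds the 250 bases before the annotated start, written on the gene's own strand, and capitals mark matches to the NF-kB consensus or to the core of the interferon-stimulated response element (ISRE), GAAANNGAAA, on either strand. Cxcl1 lies on the plus strand at chr5:90890995-90891244, Cxcl2 on the plus strand at chr5:90903649-90903898, Cxcl10 on the minus strand at chr5:92348890-92349139, Cxcl9 on the minus strand at chr5:92328080-92328329 and Cxcl12 on the plus strand at chr6:117168285-117168534.
Cxcl1: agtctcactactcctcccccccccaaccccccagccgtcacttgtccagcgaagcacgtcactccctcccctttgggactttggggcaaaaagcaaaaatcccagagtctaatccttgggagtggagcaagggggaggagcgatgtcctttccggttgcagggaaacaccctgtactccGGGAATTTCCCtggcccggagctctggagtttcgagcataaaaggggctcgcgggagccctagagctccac
Cxcl2: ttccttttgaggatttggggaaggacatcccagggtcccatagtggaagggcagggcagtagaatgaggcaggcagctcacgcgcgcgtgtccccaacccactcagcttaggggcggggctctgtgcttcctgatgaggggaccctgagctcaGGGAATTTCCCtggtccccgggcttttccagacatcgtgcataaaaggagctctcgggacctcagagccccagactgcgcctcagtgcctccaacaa
Cxcl10: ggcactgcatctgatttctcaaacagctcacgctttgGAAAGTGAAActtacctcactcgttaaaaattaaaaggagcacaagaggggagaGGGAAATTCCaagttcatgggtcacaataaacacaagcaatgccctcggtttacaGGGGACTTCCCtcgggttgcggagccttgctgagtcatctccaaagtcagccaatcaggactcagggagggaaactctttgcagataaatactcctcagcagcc
Cxcl9: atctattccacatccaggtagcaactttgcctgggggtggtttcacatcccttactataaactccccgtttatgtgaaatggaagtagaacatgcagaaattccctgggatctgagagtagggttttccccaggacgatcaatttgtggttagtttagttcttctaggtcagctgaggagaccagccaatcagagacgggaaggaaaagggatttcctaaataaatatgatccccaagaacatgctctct
Cxcl12: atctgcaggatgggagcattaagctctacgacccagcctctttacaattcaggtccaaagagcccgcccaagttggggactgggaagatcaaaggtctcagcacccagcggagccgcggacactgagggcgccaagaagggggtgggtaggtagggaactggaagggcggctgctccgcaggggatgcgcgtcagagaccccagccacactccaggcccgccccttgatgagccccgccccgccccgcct

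Cxcl1 and Cxcl2 each held 1 stretch that matched the NF-kB consensus on both strands, beginning 71 and 97 bases before the start. The longest run shared by the windows of Cxcl1 and Cxcl2 was gggaatttccctgg, 14 bases that contain this match, whereas other pairs of members shared runs of 7 to 11 bases. Cxcl10 held 2 stretches matching the NF-kB consensus, beginning 159 and 104 bases before the start, and 1 ISRE core beginning 213 bases before it. The windows of Cxcl9, Cxcl12 and Cxcl13 held 0 matches to either. Of 32851 windows of the same length, 7.25% held the NF-kB consensus and 2.98% the ISRE core. These matches describe letters in a window and were not tested for binding.

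The count on genes was 23129212 to 35819339 per liver (median 25733946). Of the genes, 17243 passed the filter on low counts and were tested together by edgeR's quasi-likelihood method with Benjamini-Hochberg adjustment; a gene was called at an adjusted p under 0.05. Levels are CPM, counts scaled by TMM to a common library size. Hepatocyte and erythroid markers were abundant in every liver, with summed levels of 49348 to 199826 CPM over 7 genes and 9316 to 16886 CPM over 7 genes. Casp8 measured 7.82 to 21.9 CPM in the 6 livers labelled as Casp8-/- and 27.7 to 33.8 CPM in the other 5, and Mlkl 0.729 to 1.22 CPM in Casp8-/- Mlkl-/- livers against 3.68 CPM or more elsewhere. Tnfrsf1a, the gene for TNFR1, measured 49.8 and 50.5 CPM in Tnfr1-/- and 47.1 to 53.4 CPM in WT livers, and 76.9, 75.9 and 424.5 CPM in Casp8-/- Tnfr1-/- livers, so a count of the whole gene is no check of the Tnfr1-/- genotype. Casp8-/- Tnfr1-/- replicate 3 stands apart: its striated muscle markers summed to 1856 CPM against 15.3 to 37.6 CPM in the other livers, its stromal markers to 3929 against 544 to 926 CPM, and it measured 3407 CPM of Xist where the other 10 livers had at most 0.569. Casp8-/- Mlkl-/- replicate 1 also stood apart within its genotype. It had the highest hepatocyte sum, and macrophage markers at 1609 CPM against 648 and 710 CPM in replicates 2 and 3. Its 10 most abundant genes held 24.0% of its counts, against 11.9 and 12.5% in those livers. The chi-square per degree of freedom between its counts and theirs was 430 and 300, against 13.5 between replicates 2 and 3. Without Casp8-/- Tnfr1-/- replicate 3, edgeR called 7.28, 4.46 and 2.83% of 17027 genes higher against WT, Tnfr1-/- and Casp8-/- Mlkl-/- livers. n is the number of livers.

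In WT livers the family was mostly Cxcl12, and in Casp8-/- Tnfr1-/- livers it was mostly Cxcl10. Second in the latter was Cxcl1 in replicates 1 and 2 (24.1 and 27.6% of the summed RPKM). In replicate 3 it was Cxcl2 (16.1%), ahead of Cxcl1 (14.2%). Levels of different genes are compared here only as RPKM, TMM-scaled CPM per kilobase of the deposited gene width. The 9 members summed to 30.8 to 32.3 RPKM in the 3 WT livers, 31.3 and 34.5 in the 2 Tnfr1-/- livers, 35.7 to 42.1 in the 3 Casp8-/- Mlkl-/- livers and 114 to 139 in the 3 Casp8-/- Tnfr1-/- livers. The homeostatic class made 80.2 to 84.8% of that sum in WT, 86.1 and 90.5% in Tnfr1-/-, 69.1 to 73.2% in Casp8-/- Mlkl-/- and 14.5 to 16.4% in Casp8-/- Tnfr1-/- livers. The interferon-induced class made 10.4 to 11.3%, 7.41 and 4.95%, 23.1 to 25.9% and 53.8 to 60.2% in the same order. The neutrophil-attracting class made 4.84 to 8.52%, 6.52 and 4.54%, 3.08 to 5.87% and 25.3 to 30.3%. In this order of shares the Casp8-/- Mlkl-/- livers lay apart from the 5 livers with Casp8 for the interferon-induced class, while for the neutrophil-attracting class they lay among them or below. Since shares sum to 100%, they move together. In summed level the homeostatic class was 25.3 to 26.7 RPKM in WT and 18.2 to 20.7 in Casp8-/- Tnfr1-/- livers, the interferon-induced class 3.21 to 3.55 and 61.5 to 83.7, and the neutrophil-attracting class 1.49 to 2.68 and 34.7 to 36.3. With the exon length of GENCODE M21 in place of the deposited width, the homeostatic share in Casp8-/- Tnfr1-/- livers was 19.0 to 21.7% and the neutrophil-attracting share 19.9 to 30.0%. In whole-liver RNA, fewer cells of a type and less RNA per cell cannot be told apart.

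**Figure D1:**
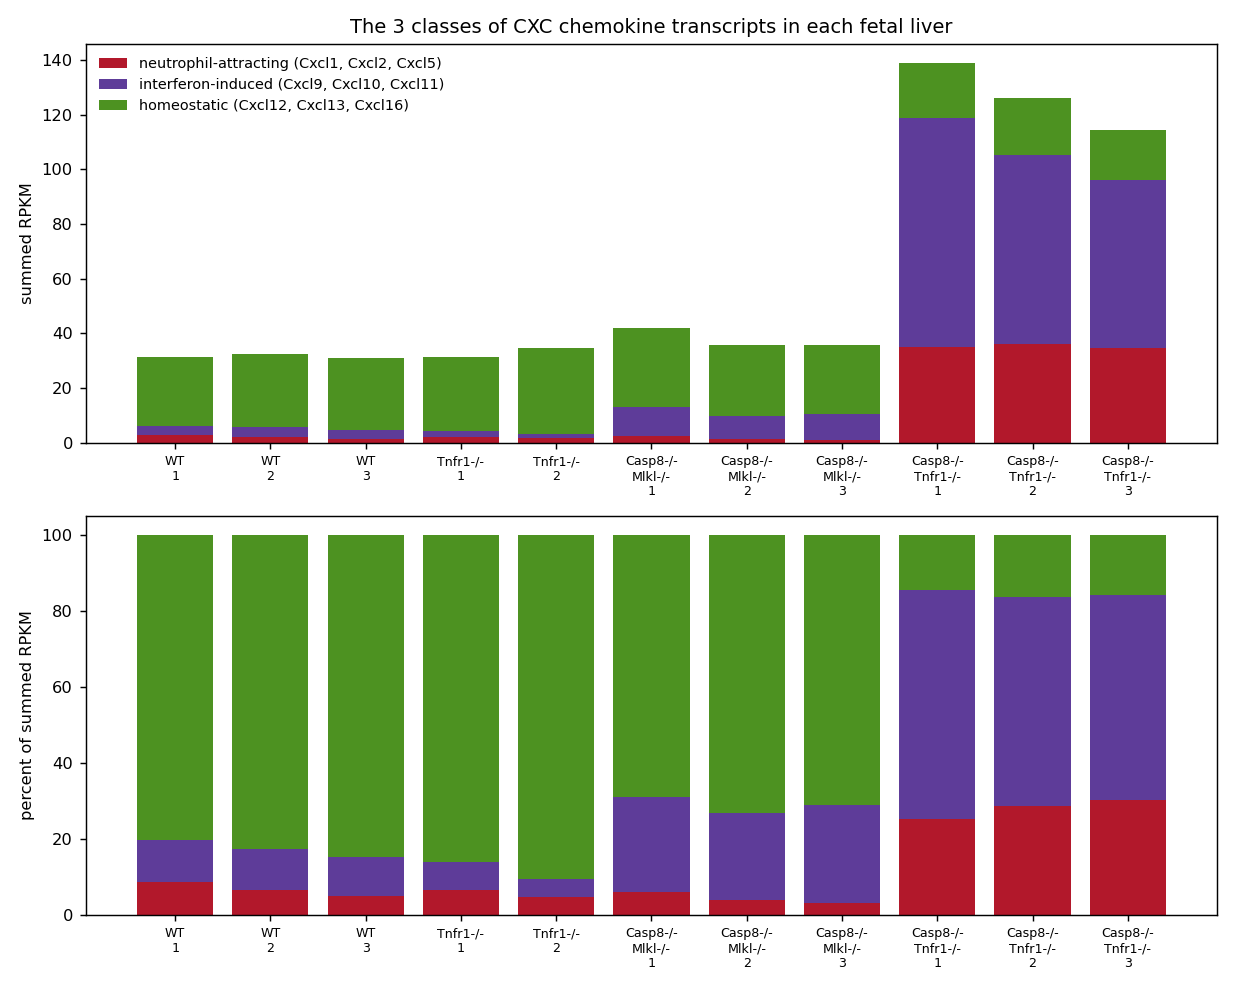
Levels of the 3 classes in each of the 11 livers, as stacked bars of summed RPKM (top) and as percent of the sum over all 9 members (bottom); replicate numbers stand under the bars. The total is 114 to 139 RPKM in the 3 Casp8-/- Tnfr1-/- livers and at most 42.1 RPKM in the others.

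Against WT livers, 5 members were called higher in Casp8-/- Tnfr1-/- livers (Cxcl1, Cxcl2, Cxcl9, Cxcl10 and Cxcl16) and 1 was called lower (Cxcl12), of 8 that passed the filter on low counts; among all genes tested, 5.10% were called higher and 0.702% lower. Against Tnfr1-/- livers, Cxcl1, Cxcl9 and Cxcl10 were called higher and Cxcl12 lower, where 2.05% and 0.122% of all genes were. Against Casp8-/- Mlkl-/- livers, Cxcl1, Cxcl2 and Cxcl10 were called higher and 0 members lower, where 1.54% and 0.116% of all genes were. The median log2 fold change of the 8 members was 3.07, 3.58 and 2.03 in these comparisons, beside medians of all genes of -0.0015, -0.014 and -0.033. All 3 comparisons use the same Casp8-/- Tnfr1-/- livers, so they are not independent. Cxcl1, Cxcl2, Cxcl9 and Cxcl10 were above all 8 other livers in each Casp8-/- Tnfr1-/- liver, which held for 7.43% of the genes tested, and Cxcl12 was below them in each, which held for 3.32%. Members that passed the filter only through the livers in which they are high had to differ, and Cxcl2 and Cxcl9 are such genes. Cxcl11 did not pass it.

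**Figure D2:**
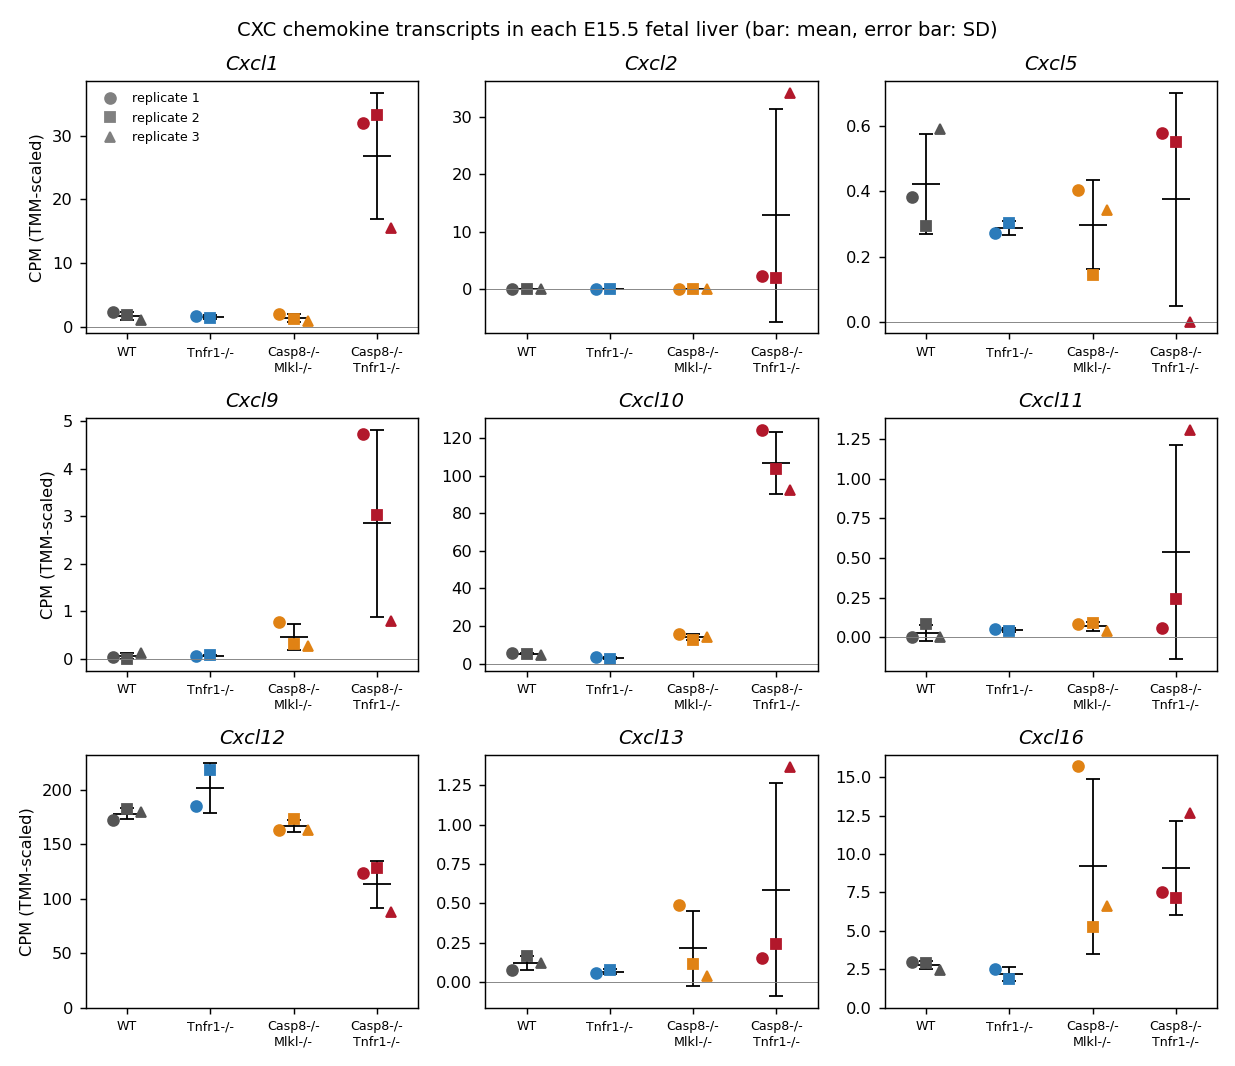
CPM of the 9 members in each liver (marker shape: replicate number), with the mean and SD of each genotype as bars; each panel has its own linear axis. Cxcl10 measured 92.6 to 125 CPM in Casp8-/- Tnfr1-/- livers and at most 15.6 CPM in the others, whereas Cxcl12 measured 88.3 to 128 CPM there and at least 163 CPM in the others.

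Among the ligands that attract neutrophils, Cxcl1 and Cxcl2 rose in Casp8-/- Tnfr1-/- livers and Cxcl5 did not pass the test. Cxcl1 (ENSMUSG00000029380, chromosome 5, 90891241 to 90893115 in GRCm38), also known as KC, measured 2.30, 1.80 and 1.02 CPM in the 3 WT livers, 1.75 and 1.29 in Tnfr1-/- livers, 2.07, 1.19 and 0.840 in Casp8-/- Mlkl-/- livers and 32.0, 33.2 and 15.49 in Casp8-/- Tnfr1-/- livers. The 8 other livers overlap one another, and the lowest Casp8-/- Tnfr1-/- liver lies above all of them. The log2 fold change was 3.97 ± 0.453 (SE) against WT (edgeR adjusted p = 0.0011), 4.14 against Tnfr1-/- (adjusted p = 0.00421) and 4.30 against Casp8-/- Mlkl-/- livers (adjusted p = 0.00193). An exact permutation test of the 3 livers against the other 8 gave p = 0.00606 (two-sided), the smallest that this design can give, as it did for Cxcl10 and Cxcl12. The call against WT and that against Casp8-/- Mlkl-/- livers held in all 11 fits with 1 liver left out; that against Tnfr1-/- livers was lost when either Tnfr1-/- liver was left out.

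Cxcl2 (ENSMUSG00000058427, chromosome 5, 90903871 to 90905938), known as MIP-2, was almost silent outside the Casp8-/- Tnfr1-/- livers. It had 1, 0 and 2 counts in WT, 2 and 1 in Tnfr1-/-, 2, 0 and 0 in Casp8-/- Mlkl-/- and 77, 56 and 602 in Casp8-/- Tnfr1-/- livers, the last of these in replicate 3, or 2.35, 1.93 and 34.3 CPM. Summed counts were 735 against 3 in WT livers, a ratio of 232 once scaled (95% exact interval 79.2 to 1129, counting error only), and 735 against 2 in Casp8-/- Mlkl-/- livers. The fitted log2 fold change was 8.17 against WT (edgeR adjusted p = 0.0135), 7.94 against Tnfr1-/- (adjusted p = 0.0509, not called) and 8.81 against Casp8-/- Mlkl-/- livers (adjusted p = 0.0263). The call against Casp8-/- Mlkl-/- livers was lost in 6 of 11 fits with 1 liver left out, those without WT replicate 1, either Tnfr1-/- liver or any Casp8-/- Mlkl-/- liver (highest edgeR adjusted p = 0.148). Without Casp8-/- Tnfr1-/- replicate 3 the log2 fold change was 5.61, 5.37 and 6.26 in the same order, and the gene was called in all 3 comparisons. The call against WT was lost without any 1 of the WT livers (highest edgeR adjusted p = 0.0775). In reads of this length the gene is not fully distinct: 5.84% of its 50-base stretches also occur in other genes, mainly Cxcl3, whereas 0% of those of Cxcl1 do.

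By deposited width, the neutrophil-attracting class was level across the 3 Casp8-/- Tnfr1-/- livers, at 35.2, 36.3 and 34.7 RPKM, but its makeup was not. Cxcl1 measured 33.6, 34.9 and 16.3 RPKM and Cxcl2 1.26, 1.04 and 18.4 RPKM, so that the ratio of Cxcl2 to Cxcl1 was 0.0376 and 0.0297 in replicates 1 and 2 and 1.13 in replicate 3. These sums and ratios depend on the width, which is 953 bases for Cxcl1 where the GENCODE M21 exon length is 1875. For Cxcl2 they are 1859 and 2068. With exon lengths the class was not level: its share of the family was 19.9 and 22.5% in replicates 1 and 2 and 30.0% in replicate 3. The same liver measured 4.84 CPM of Cxcl3, a further CXC ligand, where all 10 others had at most 0.213. Cxcl5 (ENSMUSG00000029371, chromosome 5, 90759360 to 90761624), an epithelial ligand of CXCR2, measured 0.384, 0.293 and 0.591 CPM in WT livers, 0.273 and 0.304 in Tnfr1-/-, 0.405, 0.145 and 0.344 in Casp8-/- Mlkl-/- and 0.579, 0.550 and 0 in Casp8-/- Tnfr1-/- livers. The value of 0 is from replicate 3, where 0 counts allow a level of up to 0.171 CPM. Compared with WT its log2 fold change came to -0.09 ± 0.794, which was not called (edgeR adjusted p = 0.951), and to 0.42 without that liver, and the groups overlap. A difference of this gene was not detectable at 0 to 19 counts per liver.

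**Figure D3:**
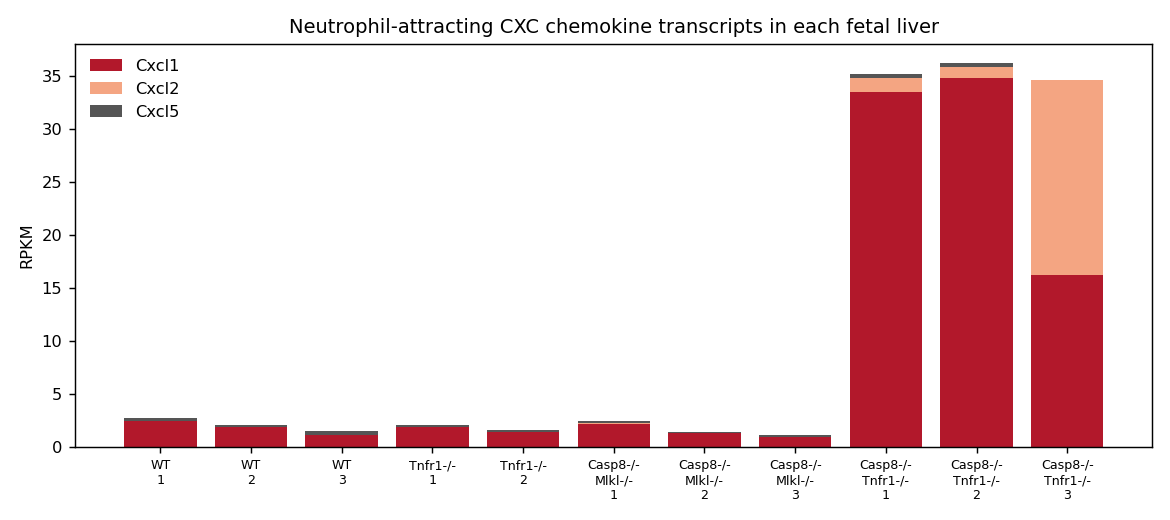
RPKM by deposited gene width of Cxcl1, Cxcl2 and Cxcl5, stacked for each liver, with replicate numbers under the bars. The 3 Casp8-/- Tnfr1-/- bars reach 34.7 to 36.3 RPKM; Cxcl2 makes up 18.4 RPKM of the bar of replicate 3 and 1.26 RPKM or less of any other.

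The interferon-induced ligands Cxcl9 and Cxcl10 rose in Casp8-/- Tnfr1-/- livers and measured in between in Casp8-/- Mlkl-/- livers. By RPKM the most abundant was Cxcl10 (ENSMUSG00000034855, chromosome 5, 92346638 to 92348889), known as IP-10. Cxcl10 measured 5.37, 5.24 and 4.81 CPM in WT livers, 3.47 and 2.54 in Tnfr1-/- livers, 15.6, 12.3 and 13.9 in Casp8-/- Mlkl-/- livers and 125, 103 and 92.6 in Casp8-/- Tnfr1-/- livers. No liver of a genotype overlapped with a liver of another, and the order was Tnfr1-/-, WT, Casp8-/- Mlkl-/- and Casp8-/- Tnfr1-/-. The log2 fold change of Casp8-/- Tnfr1-/- livers was 4.38 ± 0.192 against WT (edgeR adjusted p = 5.86e-06), 5.14 ± 0.239 against Tnfr1-/- (adjusted p = 2.04e-05) and 2.94 ± 0.179 against Casp8-/- Mlkl-/- livers (adjusted p = 1.68e-04). These calls held in all 11 fits with 1 liver left out and in all 6 alternatives of the method. For Casp8-/- Mlkl-/- compared with WT it was 1.44 ± 0.174, with an edgeR adjusted p of 0.0521, not called, and 0.00735, called, without Casp8-/- Tnfr1-/- replicate 3, a liver of neither genotype. Of its exon bases 5.91% lie over exons of Art3 on the other strand, and Art3 itself measured at most 1.99 CPM in any liver.

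Cxcl9 (ENSMUSG00000029417, chromosome 5, 92321347 to 92328079), known as MIG, was also highest in Casp8-/- Tnfr1-/- livers, at a lower level, and did not separate WT from Tnfr1-/- livers. It measured 0.0384, 0 and 0.118 CPM in WT, 0.0547 and 0.0759 in Tnfr1-/-, 0.770, 0.319 and 0.267 in Casp8-/- Mlkl-/- and 4.73, 3.03 and 0.797 in Casp8-/- Tnfr1-/- livers. Replicate 3 of the last genotype, with 14 counts, lay only just above Casp8-/- Mlkl-/- replicate 1, with 19. Against WT, the log2 fold change was 5.65 ± 0.928 (edgeR adjusted p = 0.00792), from 257 summed counts against 4, a scaled ratio of 60.9 (95% exact interval 23.5 to 225, counting error only). It was 5.39 against Tnfr1-/- (adjusted p = 0.0303) and 2.67 against Casp8-/- Mlkl-/- livers (adjusted p = 0.117, not called). Without replicate 3 the last of these was 3.12 and called (edgeR adjusted p = 0.012), and without WT replicate 1 the call against WT was lost (edgeR adjusted p = 0.0511). The call against Tnfr1-/- livers was lost in 4 of 11 fits, those without WT replicate 1, Casp8-/- Tnfr1-/- replicate 2 or either Tnfr1-/- liver (highest edgeR adjusted p = 0.458).

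Cxcl11 (ENSMUSG00000060183, chromosome 5, 92359544 to 92365485), also known as I-TAC, was not tested. GENCODE M21 annotates it as a polymorphic pseudogene in the mouse, and the C57BL/6 allele is known not to make the protein. It had 0 to 2 counts in WT and Tnfr1-/- livers, 1 to 3 in Casp8-/- Mlkl-/- and 2, 7 and 23 in Casp8-/- Tnfr1-/- livers, the last in replicate 3. The groups overlap, and an exact permutation test of the 3 Casp8-/- Tnfr1-/- livers against the other 8 gave p = 0.0242 (two-sided). Exons of Gm2673 on the other strand cover 41.7% of its exon bases, and the 2 cannot be told apart without strand; Gm2673 itself was at 0.0384 CPM in 1 liver and 0 in the others.

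All 6 Casp8-/- livers measured higher than all 5 livers with Casp8 for 3 members, Cxcl9, Cxcl10 and Cxcl16, which held for 3.47% of the genes tested; 0 members were lower in all 6, which held for 1.35%. The 3 Casp8-/- Mlkl-/- livers alone lay above the 5 livers with Casp8 for the same 3, which held for 5.61% of genes. For Cxcl1, Cxcl2 and Cxcl5 they did not. Because Cxcl9 passed the filter on low counts only through livers without Casp8, its separation in the split of all 6 against 5 was favoured by the filter. In edgeR's comparison of Casp8-/- Mlkl-/- with WT livers, 0 of 8 members were called, and 0.00580% of all genes were called higher and 0% lower; 3 members had an unadjusted p under 0.05 (Cxcl9, Cxcl10 and Cxcl16), and DESeq2's Wald test called 2, Cxcl10 and Cxcl16, and limma-voom 0. The log2 fold changes were 2.98 ± 0.959 for Cxcl9, 1.44 ± 0.174 for Cxcl10 and 1.72 ± 0.415 for Cxcl16, against -0.33 ± 0.431 for Cxcl1 and -0.10 ± 0.155 for Cxcl12. The class medians in that comparison were 2.21 over 2 interferon-induced members, -0.52 over 3 neutrophil-attracting members and 0.77 over 3 homeostatic members, beside 0.028 over all genes. In Tnfr1-/- against WT livers 0 members were called by edgeR and 0% of all genes in either direction (186 genes at an unadjusted p under 0.05); 1 member, Cxcl10, had an unadjusted p under 0.05 (log2 fold change -0.77, edgeR adjusted p = 1), and neither DESeq2 nor limma-voom called a member.

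**Figure D4:**
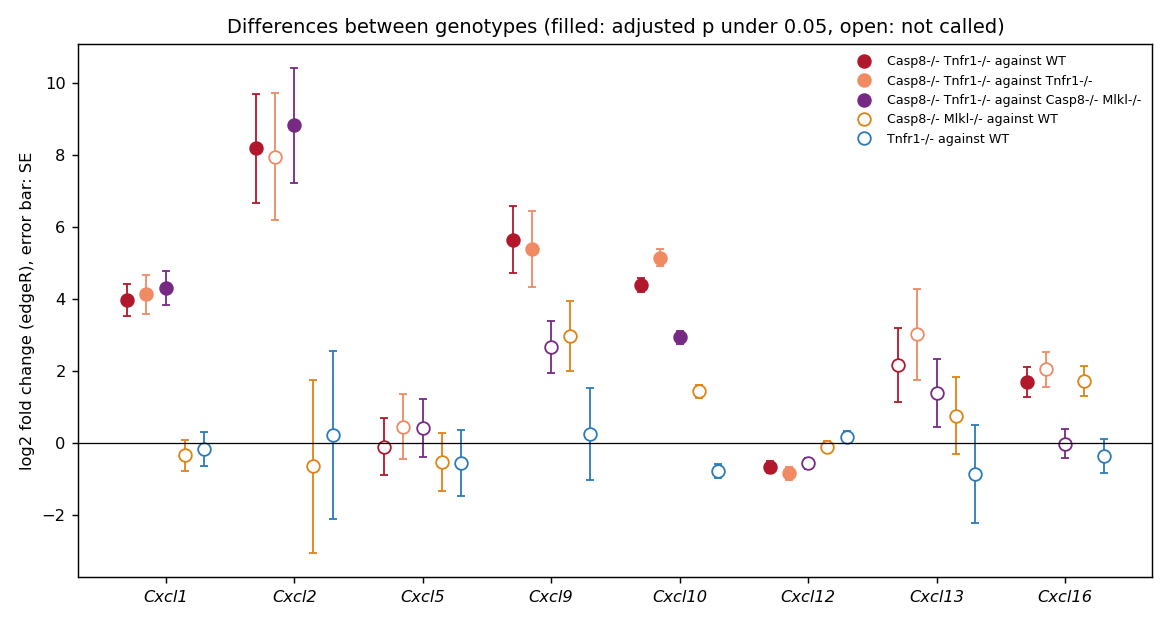
Log2 fold changes by edgeR of the 8 members tested, for the 5 comparisons between genotypes, with SE as error bars; filled circles have an adjusted p under 0.05. Cxcl1 stands at 3.97 to 4.30 in the 3 comparisons of Casp8-/- Tnfr1-/- livers and at -0.33 and -0.16 in the other 2, whereas Cxcl10 stands at 1.44 and Cxcl16 at 1.72 in Casp8-/- Mlkl-/- against WT livers.

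The homeostatic ligands did not move as a class. Cxcl12 (ENSMUSG00000061353, chromosome 6, 117168535 to 117181367), known as SDF-1, measured 172, 183 and 179.8 CPM in WT livers, 186 and 218 in Tnfr1-/-, 163, 173 and 163 in Casp8-/- Mlkl-/- and 123, 128 and 88.3 in Casp8-/- Tnfr1-/- livers. Each Casp8-/- Tnfr1-/- liver was below all others, and the other 3 genotypes lay within 163 to 218 CPM, where WT and Casp8-/- Mlkl-/- livers overlap. The log2 fold change was -0.66 ± 0.156 against WT (edgeR adjusted p = 0.0391), -0.84 ± 0.171 against Tnfr1-/- (adjusted p = 0.0372) and -0.56 ± 0.156 against Casp8-/- Mlkl-/- livers (adjusted p = 0.126, not called). Without Casp8-/- Tnfr1-/- replicate 3, the lowest liver, the change against WT was -0.50 and still called; it was lost in 7 of the 11 fits with 1 liver left out, those without a WT liver, without a Tnfr1-/- liver or without Casp8-/- Mlkl-/- replicate 2 or 3 (highest edgeR adjusted p = 0.156), and so was the call against Tnfr1-/- livers (highest 0.521). The ratio of Cxcl10 to Cxcl12 in RPKM was 0.126 to 0.147 in WT, 0.0881 and 0.0549 in Tnfr1-/-, 0.336 to 0.450 in Casp8-/- Mlkl-/- and 3.81 to 4.94 in Casp8-/- Tnfr1-/- livers, so that the more abundant of the pair changed places only in the last.

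Cxcl16 (ENSMUSG00000018920, chromosome 11, 70453983 to 70459984), which macrophages and endothelial cells carry on their surface, lay higher in each liver without Casp8. It measured 2.99, 2.89 and 2.48 CPM in WT livers, 2.51 and 1.86 in Tnfr1-/-, 15.7, 5.23 and 6.65 in Casp8-/- Mlkl-/- and 7.50, 7.16 and 12.6 in Casp8-/- Tnfr1-/- livers. The 6 livers without Casp8 lie above the other 5 and overlap one another. Its log2 fold change in Casp8-/- Tnfr1-/- livers was 1.70 ± 0.416 against WT (edgeR adjusted p = 0.0427), 2.05 ± 0.488 against Tnfr1-/- (adjusted p = 0.0695, not called) and -0.02 ± 0.399 against Casp8-/- Mlkl-/- livers (adjusted p = 0.985). The last value ranged from -0.32 to 0.62 over the fits with 1 liver left out, the highest without Casp8-/- Mlkl-/- replicate 1. The call against WT was lost in 7 of 11 such fits, those without a WT liver, a Tnfr1-/- liver, Casp8-/- Mlkl-/- replicate 3 or Casp8-/- Tnfr1-/- replicate 3 (highest edgeR adjusted p = 0.173). Exons of Zmynd15 on the opposite strand cover 18.3% of its exon bases, and Zmynd15 measured 0.796 to 1.42 CPM in the 5 livers with Casp8, 1.51 to 3.12 in Casp8-/- Mlkl-/- and 1.65, 1.07 and 7.23 in Casp8-/- Tnfr1-/- livers; the share of Cxcl16 reads that this overlap could carry was not tested.

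Cxcl13 (ENSMUSG00000023078, chromosome 5, 95956951 to 95961068) stayed near the limit of counting. It had 2, 4 and 3 counts in WT, 2 and 2 in Tnfr1-/-, 12, 4 and 1 in Casp8-/- Mlkl-/- and 5, 7 and 24 in Casp8-/- Tnfr1-/- livers, and its highest level was 1.37 CPM in replicate 3 of the last genotype. The groups overlap. Compared with WT, the log2 fold change came to 2.16 ± 1.02 and was not called (edgeR adjusted p = 0.224), and in 5 of the 11 fits with 1 liver left out the gene did not pass the filter. Replicate 3 of the Casp8-/- Tnfr1-/- livers had the highest level of 4 ligands that were near the limit elsewhere, Cxcl3, Cxcl11, Cxcl13 and Cxcl14 (1.59 CPM), and also of Cxcl2; in the same liver Cxcl1, Cxcl9, Cxcl10 and Cxcl12 were the lowest of the 3 Casp8-/- Tnfr1-/- livers. The part of its other cell types in these values was not tested.

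Of 6 further CXC ligands, Pf4 and Ppbp, platelet chemokines made by megakaryocytes, passed the filter, and neither was called in any comparison. Pf4 measured 46.2 to 82.5 CPM and Ppbp 43.9 to 162 CPM over the 11 livers, with log2 fold changes of 0.01 ± 0.236 and -0.05 ± 0.399 in Casp8-/- Tnfr1-/- against WT livers. Cxcl15 and Cxcl17 had 0 counts in every liver, and Cxcl3 and Cxcl14 were not tested.

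Among 8 receptors, 5 passed the filter. Cxcr2 was the 1 called, higher in Casp8-/- Tnfr1-/- livers compared with WT, where 5.10% of all genes were called higher and 0.702% lower. Cxcr2, the neutrophil receptor for CXCL1, CXCL2 and CXCL5, measured 4.07, 3.69 and 2.92 CPM in WT, 4.10 and 4.14 in Tnfr1-/-, 12.8, 3.17 and 3.09 in Casp8-/- Mlkl-/- and 20.2, 23.4 and 135 in Casp8-/- Tnfr1-/- livers. Every Casp8-/- Tnfr1-/- liver is above the others, replicate 3 by far. The log2 fold change was 4.06 ± 0.845 against WT (edgeR adjusted p = 0.023), 3.85 against Tnfr1-/- (adjusted p = 0.089, not called) and 3.23 against Casp8-/- Mlkl-/- livers (adjusted p = 0.0907, not called); without replicate 3 it was 2.62 against WT and called (adjusted p = 0.016). Cxcr3, the receptor for the interferon-induced ligands, measured 0.335 to 0.710 CPM in WT and 0.213, 0.138 and 0.399 in Casp8-/- Tnfr1-/- livers (log2 fold change -1.20 ± 0.727, edgeR adjusted p = 0.326, not called). Cxcr4, the receptor for CXCL12, lay between 11.2 and 19.7 CPM in WT and between 32.0 and 39.6 CPM in Casp8-/- Tnfr1-/- livers (log2 fold change 1.19 ± 0.337, edgeR adjusted p = 0.0692, not called), and Casp8-/- Mlkl-/- replicate 1 lay among the latter at 36.1. Ackr3, which also binds CXCL12, and Ackr1, an erythroid and endothelial receptor that takes up CXCL1 and related ligands, were not called (1.26 ± 0.444 and -0.43 ± 0.179 against WT). Ackr1 was called lower without Casp8-/- Tnfr1-/- replicate 3 (-0.57, edgeR adjusted p = 0.0492). In that fit 7.28% of 17027 genes were called higher against WT, and 435 genes were called lower. Cxcr1, Cxcr5 and Cxcr6 were not tested, with at most 0.683 CPM in any liver.

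Proteases that cut or release CXC ligands were also followed. Of 6 tested, 3 were called higher against WT, 1 against Tnfr1-/- and 1 against Casp8-/- Mlkl-/- livers, and 0 lower, where 5.10, 2.05 and 1.54% of all genes were called higher. Without Casp8-/- Tnfr1-/- replicate 3 the counts were equal, where 7.28, 4.46 and 2.83% of all genes were called higher, but against WT Adam17 (0.35) was called and Mmp8 was not (3.39, edgeR adjusted p = 0.0583). Mmp12, a macrophage elastase that can cut ligands before the Glu-Leu-Arg motif, was the 1 called in all 3: it measured 0.115 to 0.237 CPM in WT, 0.0547 and 0.0380 in Tnfr1-/-, 0.0871 to 0.162 in Casp8-/- Mlkl-/- and 18.5, 24.9 and 58.4 in Casp8-/- Tnfr1-/- livers, with a log2 fold change of 7.47 ± 0.548 against WT (edgeR adjusted p = 9.01e-05). Mmp12 passed the filter on low counts only through the Casp8-/- Tnfr1-/- livers, where it is high, so it had to differ. The counts of 1 against Tnfr1-/- and against Casp8-/- Mlkl-/- livers are of this gene alone. Mmp8 and Mmp9, a collagenase and a gelatinase of neutrophil granules, were called against WT alone (4.94 and 4.04). Dpp4, which shortens CXCL10 and CXCL12, and Adam10 and Adam17, which release CXCL16 from the membrane, were not called, with log2 fold changes of 0.02, -0.36 and 0.19 against WT.

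The list of IL-1, TNF and NF-kB genes holds genes that act upstream of the first class and also targets of NF-kB. Of 13 tested, 10 were called higher against WT, 6 against Tnfr1-/- and 1 against Casp8-/- Mlkl-/- livers. None was called lower, and 5.10, 2.05 and 1.54% of all genes were called higher. Without Casp8-/- Tnfr1-/- replicate 3 these counts were 11, 9 and 4, beside 7.28, 4.46 and 2.83% of all genes. Il1b measured 0.126 to 0.197 CPM in WT, 2.75, 0.552 and 0.878 in Casp8-/- Mlkl-/- and 2.30 to 4.21 in Casp8-/- Tnfr1-/- livers (log2 fold change 4.25 ± 0.651 against WT, edgeR adjusted p = 0.00586). Because Il1b passed the filter on low counts only through livers without Casp8, its call against WT was favoured by the filter. Tnf lay between 0.237 and 0.960 CPM in WT, and was 4.604, 3.99 and 2.16 CPM in Casp8-/- Tnfr1-/- livers (2.69 ± 0.546, edgeR adjusted p = 0.0203). With all livers, the gene called in all 3 comparisons was Zc3h12a, which encodes an RNase that destroys transcripts of inflammatory genes, at 2.60 ± 0.229 against WT and 1.81 ± 0.22 against Casp8-/- Mlkl-/- livers. Without Casp8-/- Tnfr1-/- replicate 3, Tnf, Nfkb1 and Nfkbiz were called in all 3 as well. Nfkbiz and Nfkbia, targets and partners of NF-kB, were called against WT alone with all livers, at 2.39 and 2.55. Nfkbiz measured 27.0, 27.4 and 126 CPM in Casp8-/- Tnfr1-/- livers, and without replicate 3 it was 1.25 and Nfkbia 1.66 against WT, with Nfkbia called against Tnfr1-/- livers too (edgeR adjusted p = 0.0184). Il1a, Rela and Zfp36 were not called against WT (1.03, 0.21 and 3.08). Without replicate 3 Il1a was called (1.30, edgeR adjusted p = 0.00206), and Zfp36, at 63.5, 63.1 and 599.8 CPM in Casp8-/- Tnfr1-/- livers, was 1.15 and not called. Il17a had 0 counts in every liver.

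Of 5 tested genes reported here that act in the interferon pathway upstream of the second class, Stat2, Irf1, Irf7, Irf8 and Irf9, the number called higher was 4 against WT, 4 against Tnfr1-/- and 3 against Casp8-/- Mlkl-/- livers. None was called lower, and 5.10, 2.05 and 1.54% of all genes were called higher. These counts were equal without Casp8-/- Tnfr1-/- replicate 3, where the shares of all genes were 7.28, 4.46 and 2.83%. Irf7, an amplifier of type I interferon responses, measured 7.14 to 7.71 CPM in WT, 46.4, 19.6 and 22.1 in Casp8-/- Mlkl-/- and 156 to 227 in Casp8-/- Tnfr1-/- livers (4.67 ± 0.344, edgeR adjusted p = 9.08e-05). Stat2 and Irf9, parts of the factor that binds the ISRE, were called in all 3 comparisons, at 2.13 and 1.88 against WT. Irf1 was called against WT and Tnfr1-/- livers but not against Casp8-/- Mlkl-/- livers (1.31 ± 0.319, edgeR adjusted p = 0.0826). Irf8 was not called (0.28 against WT). Transcripts of the interferons themselves were at the limit of counting: Ifng measured at most 0.0915 CPM and Ifnb1 at most 0.0382 CPM in any liver, and neither was tested.

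**Figure D5:**
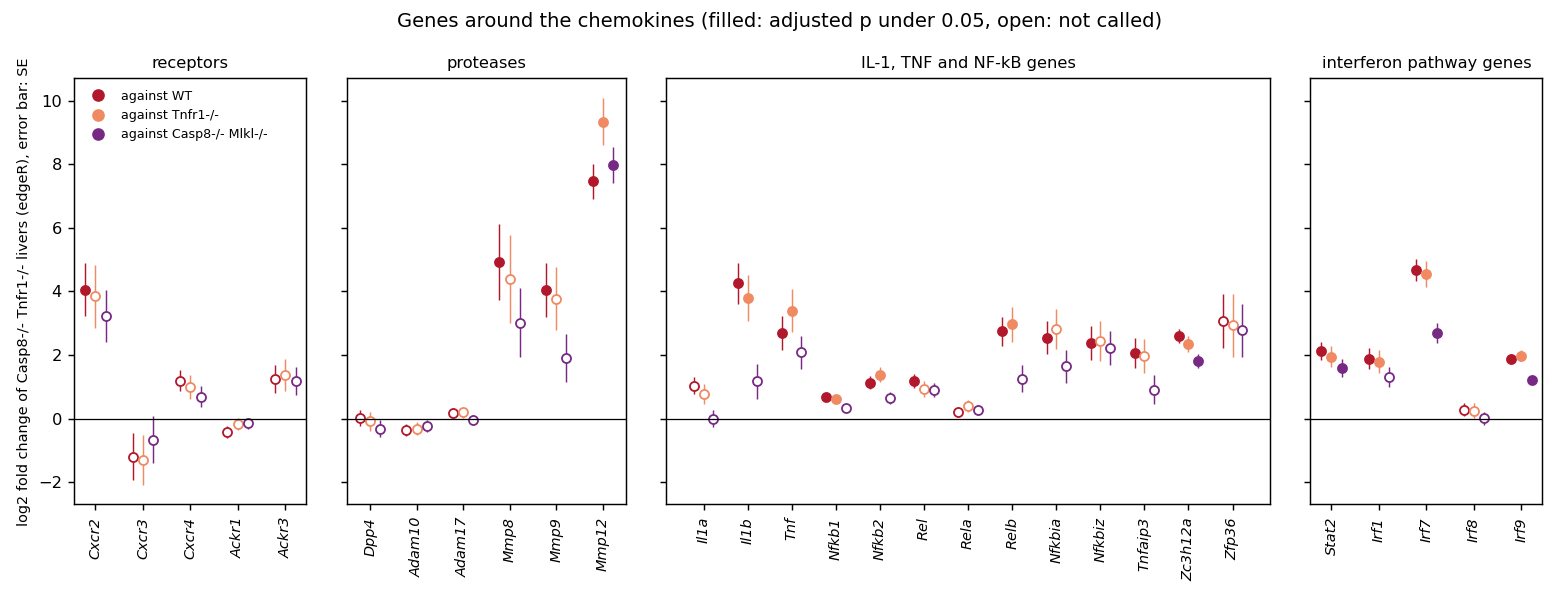
Log2 fold changes by edgeR of Casp8-/- Tnfr1-/- livers against each other genotype for the tested receptors, ligand proteases, IL-1, TNF and NF-kB genes and interferon pathway genes, with SE as error bars; filled circles have an adjusted p under 0.05. Cxcr2 stands at 3.23 to 4.06 and Mmp12 at 7.47 to 9.35, and 3 of the 5 interferon pathway genes are filled in all 3 comparisons.

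Some neutrophil and monocyte markers were called higher against WT. The 12 neutrophil markers summed to 1142 to 1657 CPM in WT, 1409 and 1380 in Tnfr1-/-, 3521, 1330 and 1455 in Casp8-/- Mlkl-/- and 5369, 6630 and 15458 in Casp8-/- Tnfr1-/- livers, and 6 were called higher against WT, 1 against Tnfr1-/- and 0 against Casp8-/- Mlkl-/- livers (8, 5 and 2 without Casp8-/- Tnfr1-/- replicate 3); the shares of all genes were 5.10, 2.05 and 1.54%, and 7.28, 4.46 and 2.83% without that liver. The neutrophil sum of Casp8-/- Tnfr1-/- replicate 3 does not hold for each marker. There Mpo (53.4 CPM), Elane (14.4) and Prtn3 (35.4) lay below all WT livers (336 to 483, 48.7 to 85.9 and 64.8 to 106 CPM). Every other neutrophil marker of the list lay above all WT livers in that replicate. The 6 monocyte markers had a sum of 78.3 to 136 CPM in WT, 114 to 180.4 in Casp8-/- Mlkl-/- and 271 to 340 in Casp8-/- Tnfr1-/- livers. Of them, 4 were called higher against WT, 1 against Tnfr1-/- and 1 against Casp8-/- Mlkl-/- livers (4, 3 and 2 without Casp8-/- Tnfr1-/- replicate 3). The 11 macrophage markers summed to 495 to 645 CPM in WT, 1609, 648 and 709.7 in Casp8-/- Mlkl-/- and 295 to 480 in Casp8-/- Tnfr1-/- livers; compared with WT, Cd68 was called higher and Clec4f and Marco lower, and Adgre1, Timd4 and Marco were called lower against Casp8-/- Mlkl-/- livers. The calls of Clec4f and Marco against WT were lost without Casp8-/- Tnfr1-/- replicate 3 (edgeR adjusted p = 0.0537 and 0.0764). Clec4f, a Kupffer cell lectin, measured 10.4 to 13.7 CPM in WT, 5.47, 0.203 and 0.726 in Casp8-/- Mlkl-/- and 0.114 to 1.16 in Casp8-/- Tnfr1-/- livers. Lymphocyte markers, among them those of the T and NK cells that carry CXCR3, summed to 5.69 to 40.5 CPM over 9 genes in all livers, and 0 of 4 tested were called. Of the endothelial markers, 1 of 7 was called higher against WT, and 0 of 8 stromal, 7 hepatocyte, 7 erythroid, 6 megakaryocyte and 10 striated muscle markers were called in any of the 3 comparisons. Of the stromal markers, 2 were, without Casp8-/- Tnfr1-/- replicate 3, called higher against WT (Des at 0.90 and Pdgfrb at 0.50), and 1, Des, against each of Tnfr1-/- and Casp8-/- Mlkl-/- livers. In the same fit 1 lymphocyte marker was called higher against Tnfr1-/- livers, 1 endothelial marker higher against each of WT and Tnfr1-/- and 1 lower against Casp8-/- Mlkl-/- livers, and hepatocyte, erythroid, megakaryocyte and striated muscle markers had 0 calls. The part of each cell type in the levels of the ligands was not tested.

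The genes with the pattern most like each class over the 11 livers were named by Pearson's r with the mean log2 CPM of the class's tested members, as a description, since all livers share genotype and scaling. For the interferon-induced class they were Nfkb1 (r = 0.989), Ifit3b (0.987) and Trim25 (0.983), and for Cxcl10 alone Bst2 (0.991) and Oas1b (0.986). For the neutrophil-attracting class they were Phf11a (0.976), Plau (0.973) and Csf1 (0.973), and for the homeostatic class Gm26608 (0.967), Wdr11 (0.966) and Pik3c2a (0.964).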

How the data were processed

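RNA of 11 E15.5 livers was measured by single-end 50-base RNA-seq; the labels and the methods name different TruSeq kits and sequencers. The authors aligned reads to GRCm38/mm10 with GSNAP. The counts, as the authors deposited them, hold the uniquely mapped reads over exons per Ensembl gene and are not normalized. The RPKM values that the authors deposited divide the count by a deposited gene width, in bases, and by a read total per liver; they were used only to recover that read total, and the RPKM printed here were computed from TMM-scaled CPM and the width. The counting tool and the use of strand are not given in the sources used here. The exon overlaps and shared 50-base stretches were therefore measured against GENCODE M21, which named 52403 of 52636 genes. No row was without a gene.

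From the counts, filterByExpr (minimum count 10) kept 17243 genes, which were scaled by TMM (factors 0.757 to 1.09) and fitted with edgeR 4.0.16 in R 4.3.3, genotype as the only factor and all 4 genotypes in 1 fit. SE is the fold change over the root of the F statistic. The script was tested on simulated data. The 9 members, their classes and the lists of receptors, proteases, IL-1, TNF, NF-kB and interferon pathway genes and cell markers were chosen with earlier results of these data known. Genes were named by a rule: the 9 members, any gene of the pathway lists, defining genes of the marker lists, and the 3 genes of nearest pattern for each class and for Cxcl10; 1 gene that this rule names is not reported here. Log2 CPM used a prior count of 2. P-values measure the spread between single livers. No 2 libraries agreed within sampling noise (chi-square per degree of freedom at least 6.45). Intervals and the limit of 3 counts that a count of 0 allows cover counting error only. Alternatives were DESeq2's size factors and its Wald test (1.42.0), limma-voom (3.58.1), no filter, only 2 genotypes, the replicate number as a block, and each liver left out.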

Additional observations from a re-analysis of the deposited data

How the results depend on the processing

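Of the 8 members tested, 6 were called in Casp8-/- Tnfr1-/- against WT livers, and the count was 6 with DESeq2's size factors, 5 with DESeq2's Wald test, 5 without the filter on low counts, 4 with limma-voom, 4 with only the 2 genotypes in the fit and 2 to 6 with 1 liver left out, the lowest without WT replicate 1 (3 without WT replicate 2 or replicate 3). Against Tnfr1-/- livers it was 4, and 1 with only the 2 genotypes and 1 to 5 with 1 liver left out (2 without WT replicate 1, 1 without either Tnfr1-/- liver). Against Casp8-/- Mlkl-/- livers it was 3, and 1 with only the 2 genotypes and 2 to 4 with 1 liver left out. For Casp8-/- Mlkl-/- against WT livers it was 0, but 1 with DESeq2's size factors, 2 with DESeq2's Wald test, 1 without the filter and 0 to 1 with 1 liver left out, called in the fit without Casp8-/- Tnfr1-/- replicate 3. In Tnfr1-/- against WT livers it was 0 in each of these. A fit with fewer livers has fewer residual degrees of freedom; other causes of these moves were not tested.

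Replicate numbers did not pair the livers: deviations of same-numbered livers correlated between -0.297 and 0.275 over 15 pairs, over 0.1 in 5. With the replicate block, the counts of members called were 4, 2, 3, 0 and 0 in the order above, and all genes called higher against WT fell from 879 to 532. Over all genes, DESeq2's Wald test called 1775 higher against WT, 1107 against Tnfr1-/- and 785 against Casp8-/- Mlkl-/- livers, where edgeR called 879, 353 and 265 and a fit of only the 2 genotypes 451, 53 and 10. The latter fit called 138 genes higher and 121 lower in Tnfr1-/- against WT livers, where edgeR with all genotypes called 0.

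DESeq2 gave Cxcl2 no adjusted p, so its count there is of 7 members. Cxcl10 in its 3 comparisons of Casp8-/- Tnfr1-/- livers and, against WT, Cxcl1 and Cxcl9 stayed called under all 6 alternatives of the method. Signs turned only among values not called. In Casp8-/- Tnfr1-/- livers, Cxcl5 with limma-voom was -0.22 compared with Tnfr1-/- and -0.11 compared with Casp8-/- Mlkl-/- livers, and -0.48 to 0.42 against WT with 1 liver left out, and Cxcl16 against Casp8-/- Mlkl-/- livers was 0.10 with limma-voom, 0.078 with the replicate block and -0.32 to 0.62 with 1 liver left out. With 1 liver left out, Cxcl2 in Casp8-/- Mlkl-/- against WT livers ranged from -3.30 to 0.21, and in Tnfr1-/- against WT livers Cxcl1 ranged from -0.42 to 0.12, Cxcl2 from -0.28 to 1.09 and Cxcl9 from -0.26 to 1.495 (-0.12 with the replicate block). DESeq2's size factors moved the median of all genes by at most 0.0081. Cxcl2, Cxcl5, Cxcl9, Cxcl11 and Cxcl13 rest on few counts in most livers, which limits their folds. Pathway and marker counts without Casp8-/- Tnfr1-/- replicate 3 were added after seeing the data.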
